A study of Mus musculus with 24 samples.

Results

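The first hour after acetaminophen was described in liver of mice labelled as Egfr knockouts, by setting 3 knockout (KO) libraries taken at 1 h against 3 KO libraries taken at 0 h, 6 of the 24 libraries of the series. The 6 are those labelled KO at 1 h or KO at 0 h. Each library was polyA RNA from the liver of a separate mouse, in a study that gave mice 500 mg/kg acetaminophen. The 0 h livers are labelled by time only, so whether those mice received a vehicle injection is not stated. The KO was specific to hepatocytes, and the labels name neither the Cre driver nor the deleted exons, so the other liver cells of these mice still carried Egfr. The 3 wild-type (WT) livers at 0 h and 3 at 1 h, from mice without the deletion under the same dosing, served as the reference for where the KO response differed.

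Acetaminophen is oxidised in hepatocytes, mainly by Cyp2e1, to a reactive quinone imine that binds glutathione. When glutathione runs short the quinone imine binds proteins, mitochondria come under oxidative stress, and the stress kinase JNK is activated. Egfr, the receptor for epidermal growth factor, signals through the ERK and AKT kinases, and a dividing or stressed cell answers such kinase signals by transcribing immediate early genes such as Fos, Jun and Egr1 without new protein synthesis.

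The 6 libraries held 5.69 to 7.51 M counts on genes, of which 3.29 to 4.37 M lay outside the mitochondrial ribosomal RNA genes, so a gene of a few CPM rests on few reads. CPM, a gene's counts relative to the library's total, are scaled by TMM, which sets library sizes from the bulk of genes. The 6 replicate pairs within KO 0 h and within KO 1 h correlated at 0.967 to 0.978 (Pearson, log2 CPM over genes). All 8 hepatocyte markers were measured and edgeR called none of them changed (2 at an unadjusted p under 0.05, none by DESeq2). In a principal component analysis of the 12 WT and KO libraries at 0 and 1 h, the first component (32.5% of variance) placed every 0 h library between -29.3 and -22 and every 1 h library between 20.1 and 32.2. On the second component (11.6%), KO 1 h replicate 1 lay at -11.6, between KO 1 h replicates 2 and 3 at -16.8 and -2.83. The WT 1 h libraries lay at 17.1, 1 and 12 there. On the third component (10.2%), KO 1 h replicates 2 and 3 lay at 18.2 and 21.2, and KO 1 h replicate 1 lay at -7.38, between the WT 1 h libraries at 1.58 and -27.0.

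Egfr itself was read first as a check of the labels. The KO 0 h replicates 1 to 3 gave 59.5, 78.0 and 110 CPM, and the KO 1 h replicates 335, 136 and 155 CPM. WT livers gave 385, 334 and 461 CPM in the 0 h group and 332, 407 and 400 CPM an hour after. KO 1 h replicate 1 therefore lay inside the range of the 6 WT libraries, while the other 5 KO libraries lay below all of them. The KO 1 h and KO 0 h libraries did not overlap, and the log2 fold change was 1.33 (SE 0.44, n = 3 and 3), which missed the threshold of 0.05 (edgeR adjusted p = 0.0782). Without KO 1 h replicate 1 it was 0.83 (adjusted p = 0.287). The counts are summed over the whole gene and do not show which exons were read, so a transcript that lacks only the deleted exons would still be counted. KO 1 h replicate 1 is called the library labelled KO 1 h replicate 1 here, and gene group counts follow with and without it. In bulk liver, fewer cells of a type and less RNA per cell cannot be told apart.

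**Figure D1:**
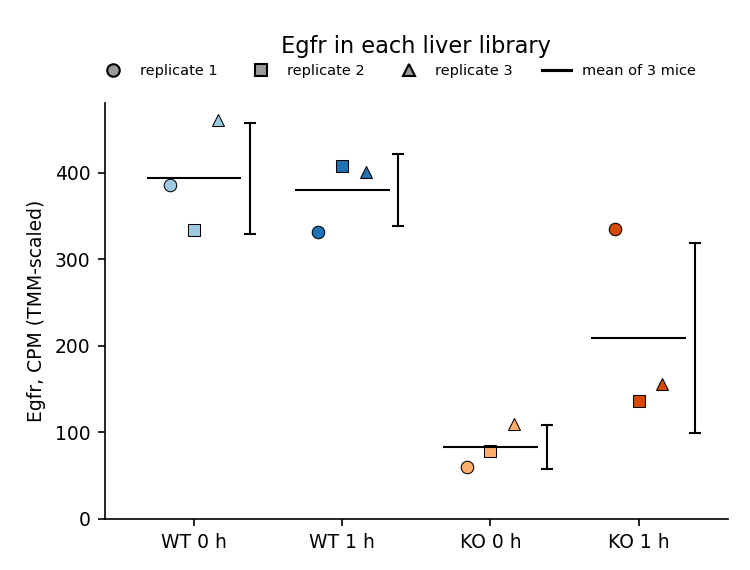
Egfr in CPM (y axis, linear from 0) in each of the 12 libraries of WT and KO liver at 0 and 1 h (x axis). Points are single mice, horizontal lines are means of 3 mice and bars are 1 SD; the library labelled KO 1 h replicate 1, at 335 CPM, lies among the WT points.

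Within the first hour, 521 genes rose and 480 fell in KO liver among 13204 tested, which is 7.58% of the tested genes in all, 3.95% higher and 3.64% lower (adjusted p under 0.05, edgeR quasi-likelihood test with Benjamini-Hochberg adjustment over all tested genes). The fitted rises reached further than the fitted falls, from lower starting levels. At KO 0 h the median level was 3.31 CPM over the genes that rose and 14 CPM over those that fell. At least a 4-fold change was fitted for 138 of the genes that rose and 37 of those that fell, and the median log2 change was 1.20 and -0.96. The median change over all tested genes was -0.00213. The 3 and 3 libraries did not overlap for 501 of the genes that rose and 467 of those that fell, where 13.4% of all tested genes were separate and higher at 1 h and 12.7% separate and lower. Without the library labelled KO 1 h replicate 1 the counts were 676 and 529, and without KO 1 h replicate 2 they were 311 and 256, 567 in all. Of the 1001 called genes, 411 were called in the same direction in each of the 6 fits that left out 1 KO library.

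**Figure D2:**
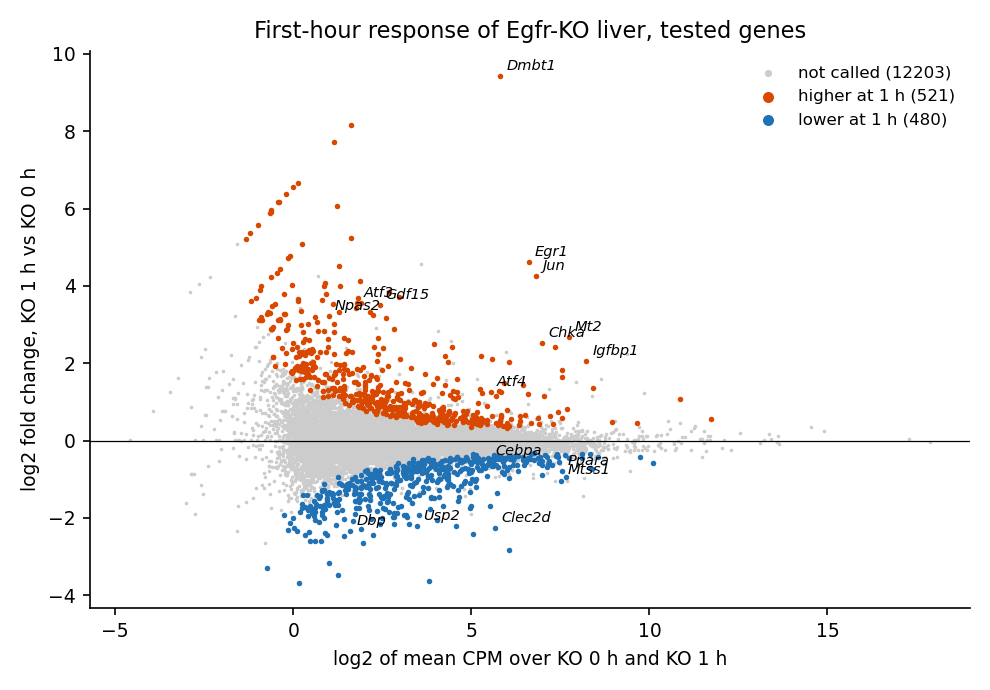
Each point is 1 tested gene in KO liver, with log2 mean CPM over KO 0 h and KO 1 h on the x axis and the fitted log2 fold change at 1 h on the y axis. Orange points rose (521), blue points fell (480) and grey points did not pass the test (12203); Egr1 and Jun lie far above the other genes of their level, and Dmbt1, the highest labelled point, had its level from 2 mice.

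Genes without an established name were part of this response: 120 of those that rose and 186 of those that fell had predicted or clone names. By RefSeq class, 79 and 124 were long non-coding RNAs, against 388 and 291 protein-coding genes. Among the 12203 genes not called, 1787 had predicted or clone names, 953 were long non-coding RNAs and 10196 were protein-coding. Reads lay mostly on the opposite strand for 148 of the 521 genes that rose and 119 of the 480 that fell, against 1124 of the 12203 not called. For these the unstranded counts may belong to an overlapping gene, and with gene-strand counts 682 genes were called in all. Such genes are not named here.

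Immediate early genes, the transcription factors and RNA-binding proteins that cells switch on at once, had 11 of 26 tested members higher and 1 lower, with a median log2 change of 0.90. Jun, the AP-1 subunit that JNK phosphorylates, went from 11.4, 14.5 and 8.07 CPM at KO 0 h to 212, 238 and 198 CPM at KO 1 h, a log2 fold change of 4.26 (SE 0.25, adjusted p = 2.96e-10). Egr1, a zinc finger factor downstream of ERK, went from 3.64, 14.8 and 4.72 CPM to 126, 240 and 198 CPM, a log2 fold change of 4.61 (SE 0.41, adjusted p = 1.59e-06). The groups were far apart for both genes, and the 3 livers at 1 h spanned a narrower range for Jun than for Egr1. Zfp36, which encodes the protein that destabilises AU-rich mRNAs, stood at 29.6, 22.8 and 25.5 CPM and then at 108, 100 and 113 CPM (log2 fold change 2.04, SE 0.14, adjusted p = 2.76e-11). Its 3 livers lay close together at each time.

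Fos, the partner of Jun in AP-1, was low before and after, at 0.475, 0.298 and 0.869 CPM and then 8.01, 8.24 and 4.72 CPM (log2 fold change 3.56, SE 0.58). Atf3, a stress-induced factor of the same family, had a like fitted change, from 0.158, 0.746 and 0.621 CPM to 6.97, 7.30 and 4.97 CPM (log2 fold change 3.56, SE 0.57). The groups did not overlap for either. Btg2, an antiproliferative gene that p53 can induce, went from 12.3, 18.2 and 22.6 CPM to 77.7, 79.2 and 74.8 CPM, so its 1 h values were closer together than its 0 h values. Dusp1, the phosphatase that switches off JNK and p38, went from 14.6, 10.7 and 10.9 CPM to 44.2, 37.6 and 28.1 CPM. Ier2 (log2 fold change 2.18, SE 0.27), Jund (1.22, SE 0.18), Klf4 (1.59, SE 0.41) and Fosl2 (1.03, SE 0.27) also rose, although Klf4 missed the threshold without KO 0 h replicate 1 (adjusted p = 0.0701) or KO 1 h replicate 2 (adjusted p = 0.12). Fosl2 missed it without KO 0 h replicate 1 (0.0791) or 2 (0.0599), or without KO 1 h replicate 2 (0.0693).

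Other immediate early genes did not pass the test for a rise. Myc stood at 3.32, 7.91 and 5.21 CPM and then 2.61, 5.81 and 7.78 CPM, with overlapping groups. Fosb had no count in any of the 6 libraries. Junb, at a log2 fold change of 0.66 (SE 0.23, adjusted p = 0.0724), and Nr4a1, at 1.00 (SE 1.10, adjusted p = 0.681), did not pass, and the Nr4a1 value came mainly from the library labelled KO 1 h replicate 1 (5.92 CPM, against 1.62 and 1.40). Zfp36l2, a relative of Zfp36, was the member that fell, by 0.86 on the log2 scale, and it kept its call in only 1 of the 6 fits that left out a KO library (adjusted p up to 0.139). Without the library labelled KO 1 h replicate 1 the group held 12 higher and 1 lower, with a median of 0.90.

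**Figure D3:**
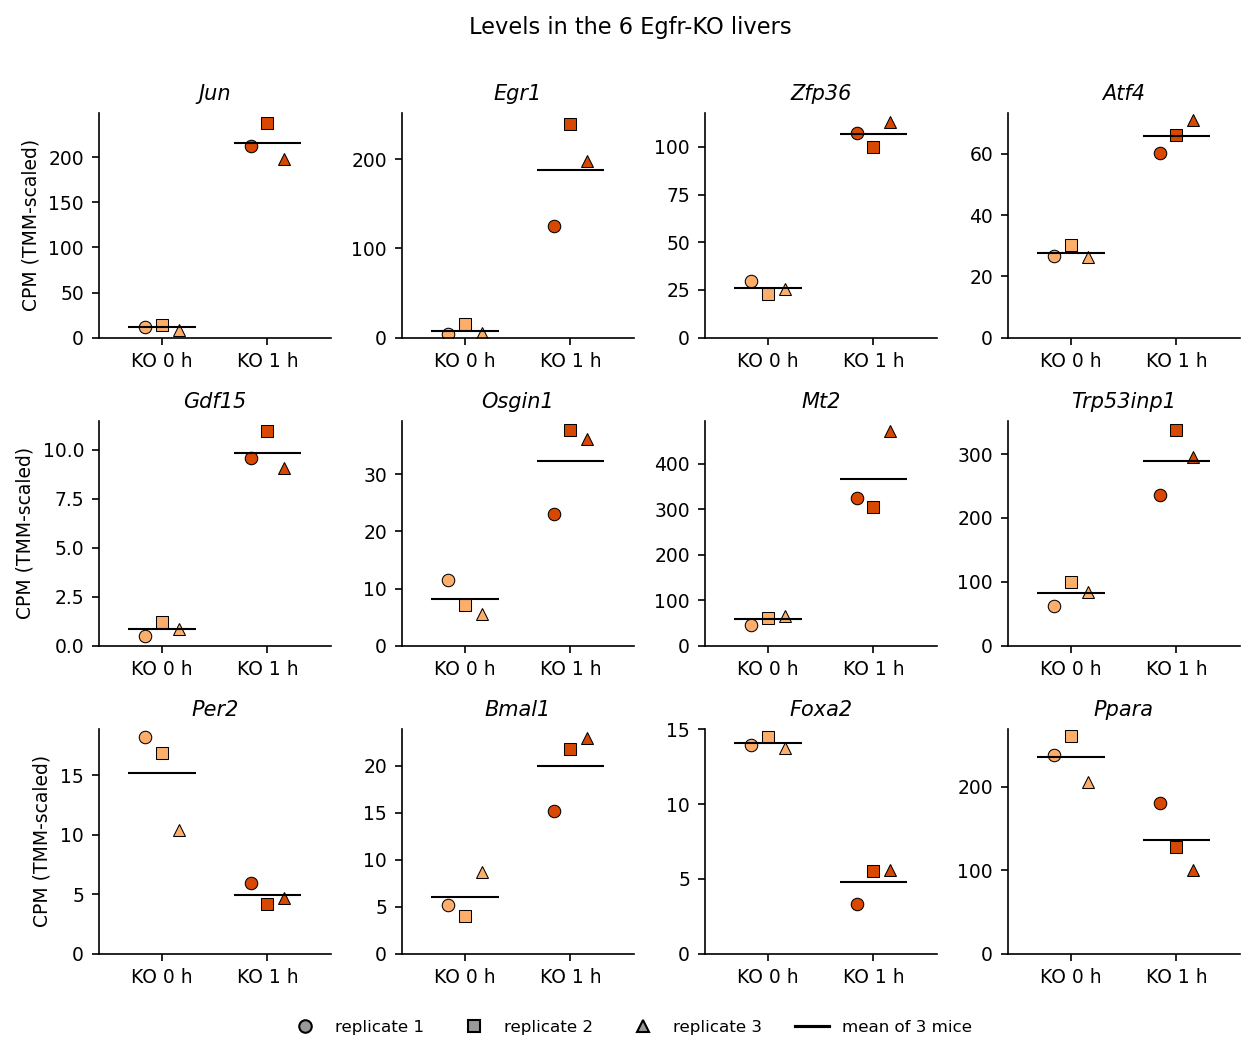
Levels of 12 genes in CPM (y axis, linear from 0, scaled per panel) in the 3 KO 0 h and 3 KO 1 h libraries (x axis). Points are single mice with 1 marker shape per replicate number and lines are means; in each of the 12 panels the 0 h and 1 h points do not overlap, and Per2, Foxa2 and Ppara are the panels where the 1 h points are lower.

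The promoters of 4 of the genes that rose are shown, each with a motif of signal-dependent transcription factors, beside 1 promoter of a clock gene described further on. These promoters were picked by hand together with the motif to mark, so they do not show how common a motif is in the response. The letters are the 250 bases before the annotated gene start, from RefSeq on build GRCm38.p6, on the gene's strand. Capitals mark the motif: TGACGTCA, the full cyclic AMP response element, for Btg2 (chr1:134079156-134079405, minus strand) and Dusp1 (chr17:26508473-26508722, minus strand), a CArG box, the site of serum response factor, for Zfp36 (chr7:28379229-28379478, minus strand), TGATGNAA on its other strand, the composite C/EBP-ATF element, for Atf3 (chr1:191183334-191183583, minus strand), and CACGTG, the E-box, for Ciart (chr3:95882229-95882478, minus strand).
Btg2: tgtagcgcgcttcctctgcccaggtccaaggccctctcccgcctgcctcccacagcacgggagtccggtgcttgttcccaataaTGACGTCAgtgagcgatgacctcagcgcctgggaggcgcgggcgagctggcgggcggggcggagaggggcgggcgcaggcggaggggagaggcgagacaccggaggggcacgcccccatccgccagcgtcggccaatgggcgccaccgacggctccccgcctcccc
Dusp1: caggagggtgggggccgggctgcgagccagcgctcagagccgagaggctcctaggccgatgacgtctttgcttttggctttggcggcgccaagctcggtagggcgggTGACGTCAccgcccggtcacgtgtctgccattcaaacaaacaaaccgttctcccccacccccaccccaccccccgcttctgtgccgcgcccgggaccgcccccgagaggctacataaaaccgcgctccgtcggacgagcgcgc
Zfp36: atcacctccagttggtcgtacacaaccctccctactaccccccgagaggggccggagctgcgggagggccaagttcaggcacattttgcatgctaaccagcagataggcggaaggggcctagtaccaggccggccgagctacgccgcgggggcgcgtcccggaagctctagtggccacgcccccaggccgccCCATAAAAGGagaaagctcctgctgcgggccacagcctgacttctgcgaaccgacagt
Atf3: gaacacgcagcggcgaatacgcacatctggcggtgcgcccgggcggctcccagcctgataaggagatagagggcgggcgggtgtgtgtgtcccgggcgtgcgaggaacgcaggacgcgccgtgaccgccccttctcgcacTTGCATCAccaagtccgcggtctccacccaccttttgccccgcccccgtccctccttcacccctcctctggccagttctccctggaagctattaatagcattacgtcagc
Ciart: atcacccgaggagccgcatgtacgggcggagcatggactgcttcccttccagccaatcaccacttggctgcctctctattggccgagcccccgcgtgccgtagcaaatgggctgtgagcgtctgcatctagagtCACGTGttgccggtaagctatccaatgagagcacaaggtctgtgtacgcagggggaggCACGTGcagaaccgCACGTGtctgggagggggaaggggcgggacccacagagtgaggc

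Motif shares over the whole response are given as a description, with no test. Windows of 300 bases, from 250 before to 50 after the start, were found by symbol for 369 of the 521 genes that rose, 314 of the 480 that fell and 9621 of the 13204 tested, and were searched on both strands. The full element TGACGTCA was present in 4.34% of the first, 0.955% of the second and 3.38% of all tested. The nested shorter core TGACG was in 30.9%, 23.6% and 34.5%, the C/EBP-ATF element TGATGNAA in 4.07%, 3.18% and 2.86%, and the AP-1 site TGANTCA in 4.88%, 9.87% and 6.59%. CArG boxes were in 2.44%, 1.59% and 1.62%, and the antioxidant element TGACNNNGC was in 20.1%, 15.9% and 16.8%. GC boxes (GGGCGG) were in 62.6%, 49.4% and 63.7%, and the TATA box (TATAAA) in 13.0%, 15.0% and 10.1%. E-boxes (CACGTG) were in 11.1%, 12.1% and 11.4%, and the D-box (TTATGTAA or TTACGTAA) in 0.813%, 1.27% and 1.04%. The printed promoter of Dusp1, a gene that rose, also holds an E-box, from -126, which is left in lower case. A match describes letters in this window only.

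The integrated stress response, in which Atf4 is made when translation initiation is braked and then induces Ddit3, Atf3 and amino acid genes, had 6 of 22 tested members higher and none lower, with a median log2 change of 0.66. Atf4 rose from 26.8, 30.1 and 26.2 CPM to 60.3, 66.1 and 71.0 CPM (log2 fold change 1.25, SE 0.13, adjusted p = 1.39e-07). Ddit3, which encodes the stress factor CHOP, rose from 2.38, 2.24 and 3.23 CPM to 8.36, 12.7 and 8.93 CPM (1.92, SE 0.30, adjusted p = 9.88e-05). Both were separate in all 6 libraries. Gdf15, a secreted stress hormone, went from 0.475, 1.19 and 0.869 CPM to 9.58, 10.9 and 9.05 CPM (3.50, SE 0.52, adjusted p = 0.000239). Ppp1r15a, the phosphatase subunit that restores translation, had a smaller change of 0.87 (SE 0.21), and Phgdh is uncertain since 2.19% of its stranded counts lay on its own strand. Among the enzymes and chaperones downstream, 2 of 20 aminoacyl-tRNA synthetases and 1 of 19 endoplasmic reticulum chaperones (Herpud1, log2 fold change 0.62, SE 0.14) were higher, with the same counts when the library labelled KO 1 h replicate 1 was left out. The synthetases were Tars1, lost in 1 of the 6 fits without 1 KO library, and Wars1, lost in 3, and with gene-strand counts Wars1 turned to -0.11 (adjusted p = 0.868). The stress group held 7 higher and none lower without the library labelled KO 1 h replicate 1.

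Among 16 targets of p53, the damage-responsive transcription factor, 4 were higher and 1 was lower, with a median log2 change of 0.14. Trp53inp1, which promotes autophagy and cell cycle arrest, rose from 62.2, 98.9 and 84.6 CPM to 236, 338 and 295 CPM (log2 fold change 1.82, SE 0.18, adjusted p = 1.29e-07), and Plk3, a stress-responsive kinase, rose from 21.5, 43.9 and 30.7 CPM to 91.3, 75.0 and 67.8 CPM. The gene that fell was Bbc3, the pro-death BH3-only protein PUMA, at 2.38, 2.09 and 2.11 CPM and then 0.697, 0.406 and 0.765 CPM (-1.78, SE 0.41), a call that missed the threshold without KO 1 h replicate 2 (adjusted p = 0.0519). The p53 group had 3 called members without KO 1 h replicate 2, and 3 higher and 1 lower without the library labelled KO 1 h replicate 1.

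In the JNK and p38 pathway 5 of 18 members were higher and 1 was lower, and the 5 were the phosphatases Dusp1, Dusp8 and Dusp16 and the kinase-binding proteins Gadd45a and Gadd45b. Dusp16 and Gadd45a lost their calls in 5 of the 6 fits without 1 KO library, at adjusted p up to 0.15 and 0.0911. Dusp8, a phosphatase that acts on JNK, went from 0.475, 0 and 0.869 CPM to 1.57, 2.70 and 3.06 CPM (log2 fold change 2.35, SE 0.50), and Gadd45b, which binds the kinases upstream of JNK, from 1.90, 3.13 and 2.61 CPM to 6.62, 6.49 and 10.1 CPM (1.60, SE 0.28). Map2k6, a kinase that activates p38, fell from 14.7, 9.40 and 11.3 CPM to 5.40, 5.95 and 6.50 CPM (-0.97, SE 0.24), and missed the threshold without KO 0 h replicate 1 (adjusted p = 0.071). That same omission left 3 called members in the group. The direction and the number called were the same without the library labelled KO 1 h replicate 1, 5 higher and 1 lower.

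NRF2 targets, the antioxidant genes that electrophiles release from KEAP1, had 4 of 30 members higher and 1 lower, with a median log2 change of 0.07. A pair of them rose several-fold. Hmox1, heme oxygenase, went from 7.44, 4.33 and 9.19 CPM to 24.4, 40.3 and 47.3 CPM (log2 fold change 2.41, SE 0.52, adjusted p = 0.00741). Osgin1, an oxidative stress-induced growth inhibitor, went from 11.6, 7.16 and 5.59 CPM to 23.0, 37.7 and 36.2 CPM (2.02, SE 0.29, adjusted p = 0.000131). In both genes the library labelled KO 1 h replicate 1 was the lowest of the 3 at 1 h. Gclc, the rate-limiting enzyme of glutathione synthesis, had a log2 fold change of 0.64 (SE 0.19), and missed the threshold without KO 0 h replicate 2 (adjusted p = 0.109) or 3 (0.093) and without KO 1 h replicate 1 (0.0901) or 2 (0.1). Mafg, the small Maf partner of NRF2, fell by 0.65 (SE 0.13). Without the library labelled KO 1 h replicate 1 the group held 5 higher and 2 lower.

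Genes of metal and iron handling had 6 of 17 members higher and none lower by edgeR, 6 and none also without the library labelled KO 1 h replicate 1 and 4 and none in each of the other 5 fits without 1 KO library. DESeq2 called 4 higher and 1 lower, as did edgeR with only the groups compared, and the replicate block gave 6 and 1. Mt2, a metallothionein that binds zinc and copper, rose from 46.5, 61.0 and 65.8 CPM to 324, 305 and 473 CPM (log2 fold change 2.67, SE 0.33, adjusted p = 5.97e-05). Mt1, its paralog, rose from 39.9, 59.4 and 55.4 CPM to 157, 221 and 448 CPM (2.42, SE 0.38, adjusted p = 0.000601), with KO 1 h replicate 3 well above the other two. Both metallothioneins and Hmox1 kept their calls in each fit without 1 KO library, while Mt1 missed the threshold with only the groups compared (adjusted p = 0.062). Glucocorticoids also induce metallothioneins, and their part in these rises was not tested. In the list of glucocorticoid-responsive genes 5 of 16 were higher and 2 lower, and 6 and 3 without the library labelled KO 1 h replicate 1. The 5 were Mt1, Mt2, Dusp1 and Errfi1, which other lists here also hold, and Sgk1. Sgk1, a kinase, rose by 0.66 (SE 0.15). The 2 that fell were Zbtb16, by 0.62 (SE 0.13), and Tsc22d3. The call of Tsc22d3 was lost in 3 of the 6 fits without 1 KO library (adjusted p up to 0.102).

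**Figure D4:**
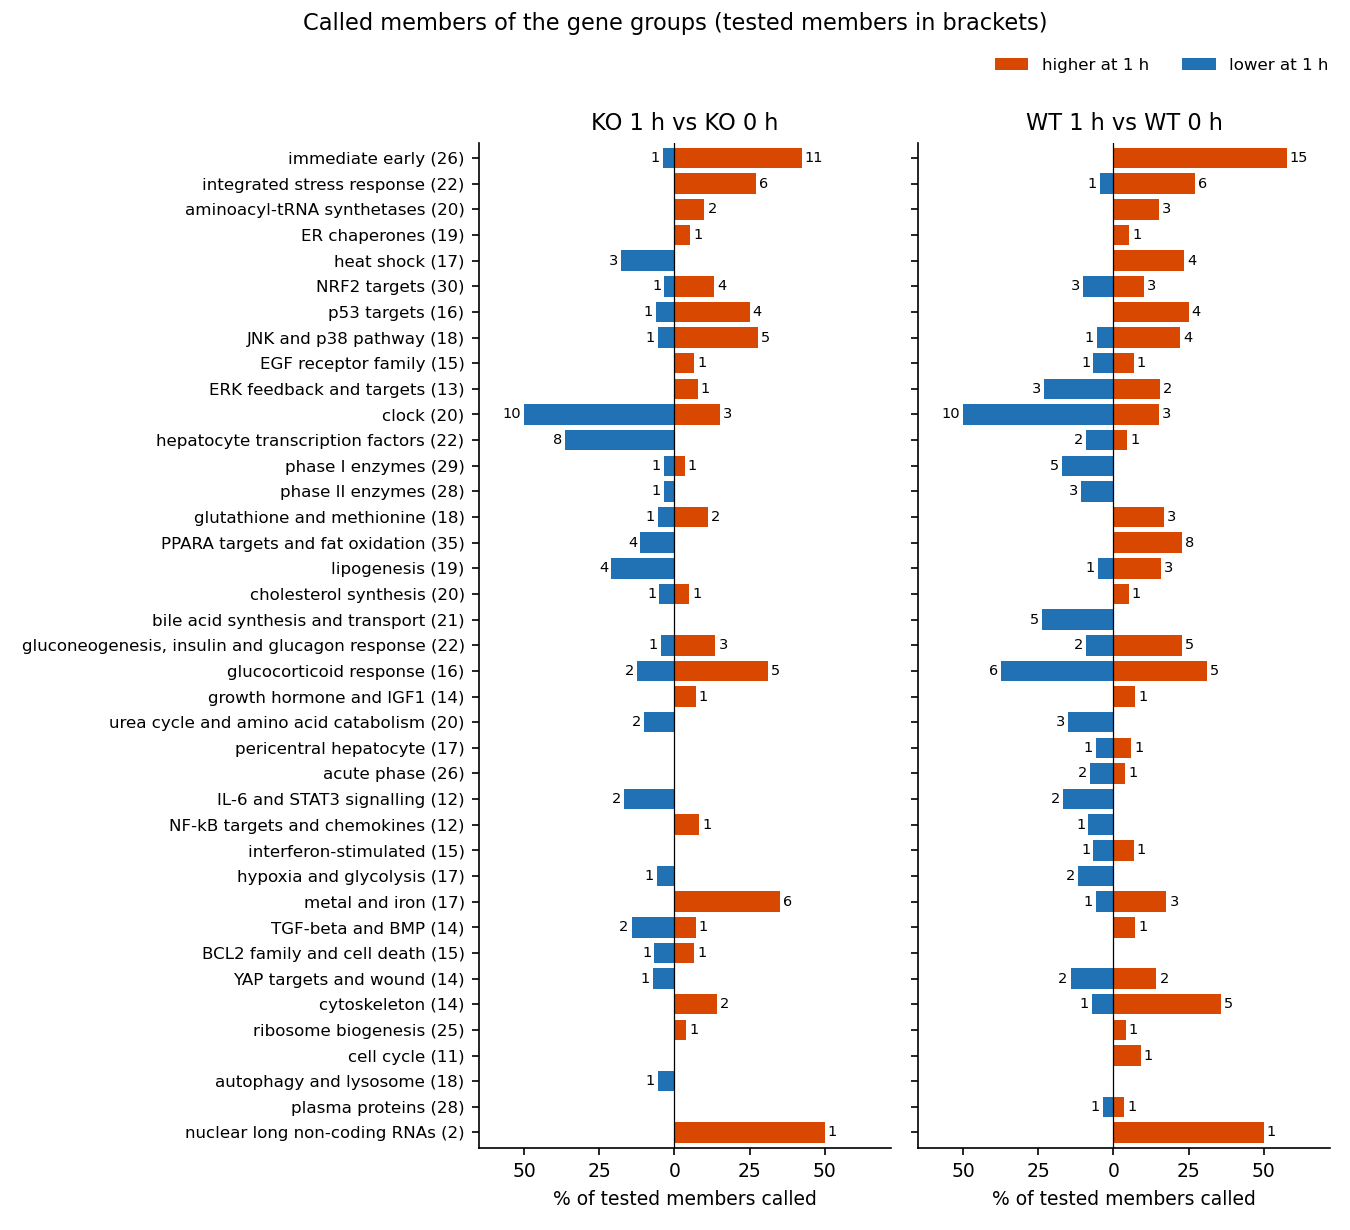
Share of the tested members of each gene group that passed the test (x axis, percent; right and orange for higher, left and blue for lower, with counts at the bars), in KO liver on the left panel and WT liver on the right, for the 39 groups with a call in either. The clock group has 10 lower and 3 higher in both panels, and the groups of hepatocyte transcription factors (8 lower) and fat oxidation (4 lower) are drawn to the left in KO liver. Over all tested genes 3.95% were higher and 3.64% lower in KO liver.

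The circadian clock group had the largest number of called members, 10 lower and 3 higher of 20 tested, with a median log2 change of -0.65. The labels do not give the hour of day at which the mice of either time were taken. The 3 higher genes were Bmal1, Npas2 and Nfil3. Bmal1, the DNA-binding activator, went from 5.22, 4.03 and 8.69 CPM to 15.2, 21.8 and 22.9 CPM (log2 fold change 1.72, SE 0.25, adjusted p = 4.47e-05). Npas2, the Clock paralog that pairs with it, went from 0.317, 0.448 and 0.372 CPM to 1.22, 6.76 and 2.81 CPM (3.21, SE 0.56, adjusted p = 0.000268). Nfil3, a repressor that competes at D-boxes, rose by 0.99 (SE 0.21). All 3 had separate groups, with the library labelled KO 1 h replicate 1 lowest at 1 h for Bmal1 and Npas2 and highest for Nfil3.

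The 10 lower genes were Per2, Per3, Nr1d2, Ciart, Dbp, Tef, Hlf, Bhlhe40, Bhlhe41 and Usp2, of which Per3, Nr1d2, Dbp, Bhlhe40 and Bhlhe41 lost their calls in 3 to 5 of the 6 fits without 1 KO library. Per2, a core repressor, fell from 18.2, 16.9 and 10.4 CPM to 5.92, 4.19 and 4.72 CPM (log2 fold change -1.62, SE 0.21, adjusted p = 3.49e-06). Ciart, a repressor of Bmal1 whose promoter with its E-boxes is printed above, fell from 8.55, 16.6 and 14.5 CPM to 4.88, 4.05 and 5.48 CPM (-1.46, SE 0.29, adjusted p = 0.00172). Usp2, a clock-controlled deubiquitinase, fell from 18.7, 21.0 and 14.7 CPM to 5.40, 3.24 and 3.31 CPM (-2.20, SE 0.32, adjusted p = 8.38e-05). None of these groups overlapped. The D-box factors Tef and Hlf, which activate detoxification genes, fell by 0.97 (SE 0.15) and 0.80 (SE 0.16), and both kept their calls in all 6 fits without 1 KO library. Dbp, their relative, had the largest fitted fall among genes named by size, -2.34 (SE 0.69, adjusted p = 0.0417), from 6.81, 4.03 and 4.22 CPM to 1.74, 0.676 and 0.637 CPM. It kept its call only where the library labelled KO 1 h replicate 1 was left out (adjusted p = 0.0369), and lost it in the other 5 such fits (up to 0.172) and with the replicate block (0.0501). Without KO 0 h replicate 1, KO 0 h replicate 2 or KO 1 h replicate 2 the group had 8 called members, 3 higher and 5 lower each time, and without the library labelled KO 1 h replicate 1 it had 3 higher and 11 lower.

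Of 22 transcription factors that maintain hepatocyte identity 8 were lower and none was higher, the median log2 change was -0.46 and 2 of the 22 had a positive change. Foxa2, the pioneer factor of liver development, fell from 13.9, 14.5 and 13.8 CPM to 3.31, 5.54 and 5.61 CPM (log2 fold change -1.51, SE 0.29, adjusted p = 0.00106). Foxa1, its paralog, fell from 18.8, 19.7 and 15.3 CPM to 10.4, 10.7 and 7.52 CPM (-0.91, SE 0.17, adjusted p = 0.000726). Ppara, the nuclear receptor for fatty acids, fell from 238, 261 and 206 CPM to 180, 128 and 100 CPM (-0.79, SE 0.16, adjusted p = 0.00172). These 3 and Onecut2 (-0.56, SE 0.14) kept their calls without any 1 KO library. For Foxa2 the library labelled KO 1 h replicate 1 was the lowest of its group, while for Ppara it was the highest.

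Cebpa, Rxra, Nr5a2 and Nr1i3 made up the other falls, at -0.54, -0.44, -0.48 and -1.11. Cebpa missed the threshold without KO 0 h replicate 1 (adjusted p = 0.0855) or 2 (0.0568) or without KO 1 h replicate 2 (0.137). Rxra, the shared partner of many nuclear receptors, missed it without the same 3 libraries, at 0.0518, 0.0609 and 0.103. Nr1i3, the xenobiotic receptor CAR, lost its call in 4 of the 6 fits (adjusted p up to 0.172), and Nr5a2 in 3 (up to 0.0627). The group as a whole had 4, 5 and 4 called members without KO 0 h replicate 1, KO 0 h replicate 2 and KO 1 h replicate 2. It had 8 without the library labelled KO 1 h replicate 1, with a median of -0.38.

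Of 35 PPARA targets and fatty acid oxidation genes 4 were lower and none higher, the median was -0.23 and 6 had a positive change. Acadm, medium-chain acyl-CoA dehydrogenase, stood at 326, 307 and 324 CPM and then at 274, 211 and 212 CPM (log2 fold change -0.46, SE 0.12, adjusted p = 0.0135). Hadha, a subunit of the mitochondrial trifunctional protein, stood at 314, 298 and 314 CPM and then at 271, 231 and 229 CPM (-0.34, SE 0.11, adjusted p = 0.0431). The groups did not overlap in either, and the library labelled KO 1 h replicate 1 was the nearest to the 0 h livers. Acadm lost its call in 4 of the 6 fits without 1 KO library and Hadha in 5 (adjusted p up to 0.121 and 0.207), and both lost it with only the groups compared (0.0538 and 0.116). The group's count was 1 without KO 0 h replicate 1, 2 or 3, none without KO 1 h replicate 2 or 3, and 8 lower without the library labelled KO 1 h replicate 1.

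Lipogenesis had 4 of 19 lower and none higher, and 4 lower also without the library labelled KO 1 h replicate 1. Elovl2, which elongates polyunsaturated fatty acids, fell from 404, 372 and 475 CPM to 298, 236 and 216 CPM (log2 fold change -0.74, SE 0.14, adjusted p = 0.000726), and Gpam, the first enzyme of glycerolipid synthesis, from 188, 165 and 159 CPM to 107, 110 and 120 CPM (-0.60, SE 0.13, adjusted p = 0.00224). Fads2, a desaturase, fell by 0.69 (SE 0.15). In cholesterol synthesis 1 of 20 genes had a positive fitted change, with a median of -0.71, and by the test 1 was lower and 1 higher, or 3 and 1 without the library labelled KO 1 h replicate 1 (median -0.90). Hmgcs1, an early enzyme of the pathway, varied from 33.3 to 135 CPM among the KO 0 h livers alone. The riser was Insig2, which holds SREBP in the endoplasmic reticulum, from 186, 172 and 216 CPM to 346, 534 and 586 CPM (1.35, SE 0.20, adjusted p = 8.38e-05).

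Among genes of insulin and glucagon response, Igfbp1, a secreted IGF-binding protein that FOXO1 induces, rose from 57.5, 110 and 179 CPM to 469, 503 and 470 CPM (log2 fold change 2.05, SE 0.36, adjusted p = 0.00136), with values at 1 h within a few percent of each other where the 0 h values were spread. It missed the threshold with only the groups compared (adjusted p = 0.0627). Foxo1 and Foxo3 themselves had changes of 0.49 (SE 0.13) and 0.65 (SE 0.17). Foxo1 missed the threshold without KO 1 h replicate 2 (adjusted p = 0.0522) or 3 (0.0788), and Foxo3 without KO 0 h replicate 1 (0.0583) or 3 (0.0709) or without KO 1 h replicate 1 (0.0629) or 2 (0.0584). The group had 3 higher and 1 lower of 22, and 2 called members without KO 0 h replicate 3, KO 1 h replicate 2 or KO 1 h replicate 3. It had 2 higher and 1 lower without the library labelled KO 1 h replicate 1.

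Over all tested genes edgeR called 7.58%. The EGF receptor family and its feedback genes showed 1 call by edgeR in 15 tested members, 2 by DESeq2, and 1 higher and 1 lower by edgeR without the library labelled KO 1 h replicate 1. The edgeR call was Errfi1, the feedback inhibitor of the receptor also called MIG6, at 637, 683 and 706 CPM and then 891, 929 and 957 CPM (log2 fold change 0.45, SE 0.11, adjusted p = 0.00909), separate in all 6 libraries and past the threshold except without KO 0 h replicate 1 (adjusted p = 0.0594). Of the ligands, Tgfa averaged 18.9 ± 1.61 and 19.4 ± 4.06 CPM (SD, n = 3) at 0 and 1 h, Areg had no count in the 6 libraries, and Hbegf averaged under 1 CPM at both times. Erbb3, a relative of Egfr expressed in hepatocytes, had a log2 fold change of -0.21 (adjusted p = 0.326). Errfi1 was also the only edgeR call among 13 ERK feedback and target genes, with and without the library labelled KO 1 h replicate 1, where DESeq2 called 2.

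Heat shock genes had 3 of 17 members lower and none higher, with a median log2 change of -0.29. Stip1, the co-chaperone that links HSP70 and HSP90, fell from 27.1, 32.5 and 29.3 CPM to 19.3, 18.8 and 18.7 CPM (log2 fold change -0.65, SE 0.13, adjusted p = 0.00175). Hsph1, an HSP110 chaperone, fell from 37.7, 47.0 and 41.7 CPM to 26.3, 17.6 and 15.7 CPM (-1.10, SE 0.26), a call lost without KO 0 h replicate 2 (adjusted p = 0.0568), KO 1 h replicate 2 (0.0793) or KO 1 h replicate 3 (0.0765). Dnaja1, an HSP40, fell by 0.41 on the log2 scale and kept its call in only 1 of the 6 such fits, the one without the library labelled KO 1 h replicate 1 (0.0283). Without that library the group had 4 lower and none higher.

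Cytokine signalling lists held 3 calls. Socs3, the feedback inhibitor of IL-6 signalling, fell from 4.59, 7.16 and 4.35 CPM to 1.92, 2.03 and 2.17 CPM (log2 fold change -1.37, SE 0.33), and missed the threshold without KO 0 h replicate 2 (adjusted p = 0.0655). Bcl3, an atypical IkB protein that STAT3 induces, fell from 5.70, 5.67 and 4.72 CPM to 1.92, 1.49 and 1.91 CPM (-1.58, SE 0.30, adjusted p = 0.00074). Nfkbia, which encodes the NF-kB inhibitor, rose from 18.8, 17.9 and 15.8 CPM to 29.6, 25.4 and 23.6 CPM (0.58, SE 0.14, adjusted p = 0.00568). It was the only edgeR call among 12 NF-kB targets, where 2 were higher without the library labelled KO 1 h replicate 1; the IL-6 and STAT3 list had 2 lower of 12 with and without it. No member of the bile acid (21 tested), pericentral (17), acute phase (26), interferon (15), cell cycle (11), proteasome (26), mitochondrial mRNA (13) or plasma protein (28) lists was called by edgeR. At an unadjusted p under 0.05 these lists had 5, 4, 3, 1, 2, 7, none and 4 members, and DESeq2 called 1 acute phase and 3 plasma protein genes and none of the others. When the library labelled KO 1 h replicate 1 was left out, edgeR called 3 pericentral genes lower and 1 each of the bile acid, acute phase and proteasome lists lower, and none of the interferon, cell cycle, mitochondrial mRNA and plasma protein lists. Of the detoxification enzymes, 1 of 29 phase I genes was higher and 1 lower (2 and 1 without that library), and 1 of 28 phase II genes was lower (1 higher and 1 lower without it). Over all tested genes 7.58% were called.

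The remaining lists are given as counts, where 7.58% of all tested genes were called, 3.95% higher and 3.64% lower. Glutathione and methionine genes had 2 higher and 1 lower of 18, TGF-beta and BMP genes 1 and 2 of 14, and BCL2 family and cell death genes 1 and 1 of 15. Id1, a helix-loop-helix inhibitor induced by BMP, was among the falls, at 3.64, 2.39 and 2.36 CPM and then 0.697, 0.946 and 0.893 CPM (log2 fold change -1.67, SE 0.37, adjusted p = 0.00296). Cytoskeletal genes had 2 higher of 14, ribosome biogenesis 1 higher of 25, growth hormone and IGF1 genes 1 higher of 14 (Igfbp1) and nuclear long non-coding RNAs 1 higher of 2. Urea cycle and amino acid genes had 2 lower of 20, hypoxia and glycolysis 1 of 17, YAP targets 1 of 14 and autophagy and lysosome genes 1 of 18. Without the library labelled KO 1 h replicate 1, higher and lower counts were 1 and 2 for glutathione and methionine, none and 1 for the BCL2 family, 2 and none for ribosome biogenesis, 2 and 1 for growth hormone and IGF1, none for the long non-coding RNAs, none and 1 for the urea cycle and 1 and 2 for hypoxia and glycolysis, and the other lists of this paragraph held the same counts. The hypoxia and glycolysis gene was Pfkfb1, a liver enzyme that sets fructose 2,6-bisphosphate, from 20.6, 21.5 and 24.0 CPM to 10.3, 10.8 and 15.4 CPM (-0.84, SE 0.17, adjusted p = 0.00147).

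Genes named for the size of their change or their small p, and found in no list, were also in both directions. Clec2d, a C-type lectin-related ligand, fell from 95.3, 75.4 and 82.5 CPM to 16.2, 17.3 and 18.9 CPM (log2 fold change -2.27, SE 0.19, adjusted p = 8.32e-09), and Hyal1, a lysosomal hyaluronidase, from 38.6, 47.3 and 48.4 CPM to 18.6, 15.1 and 19.4 CPM (-1.34, SE 0.13, adjusted p = 1.76e-08). Chka, choline kinase, rose from 39.3, 33.6 and 40.6 CPM to 221, 247 and 184 CPM (2.52, SE 0.24, adjusted p = 2.94e-07). All 3 had widely separate groups. Rnf125, a ubiquitin ligase, rose from 84.5, 97.1 and 89.7 CPM to 284, 340 and 226 CPM (1.65, SE 0.15, adjusted p = 3.8e-09). Mtss1, an actin-binding protein, fell from 251, 252 and 239 CPM to 116, 114 and 130 CPM (-1.04, SE 0.12, adjusted p = 1.03e-06). Lipg, endothelial lipase, fell from 27.1, 27.9 and 23.7 CPM to 11.3, 3.79 and 4.46 CPM (-2.06, SE 0.34, adjusted p = 0.000529), with the library labelled KO 1 h replicate 1 between the other 1 h livers and the 0 h livers.

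Markers of other cells were examined beside these results. Of 12 Kupffer cell markers edgeR called none (none at an unadjusted p under 0.05 and none by DESeq2), and their summed level was 80.3 to 103 CPM at KO 0 h and 89.6 to 128 CPM at KO 1 h. By the same test 1 of 12 sinusoidal endothelial markers was lower (Stab1, lost in 4 of the 6 fits without 1 KO library) and 1 of 12 stellate markers was higher (Acta2, log2 fold change 3.24, adjusted p = 0.0438). Acta2 stood at 0.317, 1.94 and 0.497 CPM and then 0.174, 19.9 and 5.48 CPM, with overlapping groups, and its call was lost in 5 of the 6 fits without 1 KO library (adjusted p up to 0.328). Gallbladder and mucous epithelium stood apart: its 10 markers summed to 1.90, 0.746 and 3.97 CPM at KO 0 h and to 2.09, 305 and 101 CPM at KO 1 h, with Krt20 at 0 in all 6 libraries. Dmbt1, a mucosal glycoprotein, accounted for most of it, at 0.317, 0.149 and 0 CPM and then 0.348, 250 and 85.9 CPM, and its fitted log2 fold change of 9.43 (SE 1.56, adjusted p = 0.001) rested on KO 1 h replicates 2 and 3. Muc3a, a membrane mucin, had the same pattern, at 0.158, 0.149 and 0.124 CPM and then 0.174, 14.9 and 3.06 CPM. The 6 mesothelial markers summed to 0.633 to 1.19 CPM at KO 0 h and to 1.22, 8.52 and 4.08 CPM at KO 1 h. Exocrine pancreas markers summed to 1.34 to 2.06 and 6.89 to 11.5 CPM, nearly all from Rbpjl, of whose stranded counts 0.219% lay on its own strand, and Cela3b, Cpb1, Prss2, Amy2a5 and Try4 were at 0. T and NK cell markers summed to 1.24 to 1.74 and 2.44 to 2.93 CPM, with Trac and Nkg7 at 0, and B and plasma cell markers to 0.633 to 1.19 and 1.62 to 2.61 CPM, with Ighm and Igkc at 0. Neutrophil markers were at most 2.42 CPM. No gene of the cholangiocyte (5 tested), red blood cell (5), intestinal (4) or monocyte (2) lists was called by edgeR or DESeq2, with none, none, 1 and 1 at an unadjusted p under 0.05. The part of such tissue in the other results was not tested.

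The same hour in WT liver changed 1068 genes, 8.09% of those tested, and the KO and WT comparisons share no library. Of the genes that rose in KO liver 209 also rose in WT, which is 40.1% of the KO list and 38.7% of the WT list, and of those that fell 170 also fell (35.4% and 32.2%). Over all 13204 tested genes 540 rose and 528 fell in WT, with a median log2 change of -0.00808. The fitted WT change had the same sign for 466 of the 521 genes that rose in KO liver and 414 of the 480 that fell. In WT 3 and 6 of them were called in the opposite direction. Jun (log2 fold change 4.43 in WT), Egr1 (5.04), Atf4 (1.03), Bmal1 (2.10) and Clec2d (-1.98) were called in the same direction in both. Immediate early genes had 15 higher and none lower in WT, and the clock had 3 higher and 10 lower. Elsewhere the called members differed in direction: fatty acid oxidation genes had 8 higher and none lower in WT (median 0.21) and heat shock genes 4 higher and none lower (median 0.27), against 4 lower and 3 lower in KO liver. Of these KO calls, none of the 4 and 1 of the 3 were kept in all 6 fits without 1 KO library. A list was not tested for that difference. By gene, the difference of response was called for 2 of 35 fat oxidation and 2 of 17 heat shock genes. The heat shock genes were Hspa1b and Hsph1, and the difference of Hsph1 was lost in 11 of 12 fits without 1 KO or WT library.

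The KO response differed from the WT response for 60 genes, 0.454% of those tested, 21 with the higher and 39 with the lower value in KO liver. This count rested on single libraries: it was 15 without KO 1 h replicate 2, 19 without KO 0 h replicate 2, 33 without KO 0 h replicate 3, and 35, 27, 32 and 20 without WT 0 h replicate 1, WT 0 h replicate 3, WT 1 h replicate 1 and WT 1 h replicate 3. Without the library labelled KO 1 h replicate 1 it was 83, of which 45 were among the 60. Of the genes called in KO liver, 7 that rose and 20 that fell were among the 60.

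Several of these genes were called higher in WT liver and were not called in KO liver. Plin2, the coat protein of lipid droplets, went from 136, 120 and 152 CPM to 314, 252 and 421 CPM in WT, and from 160, 168 and 146 CPM to 127, 137 and 182 CPM in KO (difference of log2 responses -1.36, adjusted p = 0.00634). Id2, an inhibitor of helix-loop-helix factors, went from 16.6, 16.2 and 17.2 CPM to 78.3, 36.5 and 48.1 CPM in WT, and from 40.8, 38.2 and 38.7 CPM to 26.3, 32.7 and 26.5 CPM in KO (-2.16, adjusted p = 0.00156). The WT 0 h livers were thus lower than the KO 0 h livers for Id2. Klf2, a flow-responsive immediate early factor, reached 11.5, 12.0 and 11.6 CPM in WT from 2.19, 1.89 and 2.40 CPM, and 5.23, 4.73 and 5.61 CPM in KO from 3.01, 3.13 and 3.73 CPM (-1.76, adjusted p = 0.0185). Hspa1b, the inducible HSP70, rose to 16.9, 19.4 and 15.0 CPM in WT from 1.93, 3.78 and 3.86 CPM, and stood at 2.85, 5.37 and 2.73 CPM and then 4.01, 4.46 and 1.27 CPM in KO (-2.63, adjusted p = 0.0374). When each of the 12 KO and WT libraries at 0 and 1 h was left out in turn, 13 of the 60 differences passed in all 12 fits, among them those of Plin2, Id2, Mgll, Map2k6, Aqp4 and Bcl3. The difference was lost in 2 of the 12 fits for Klf2 (highest adjusted p = 0.0643) and in 10 for Hspa1b (0.168), and 36 of the 60 were lost in at least 6.

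Others moved in opposite directions. Inhbe, the activin E subunit secreted by hepatocytes, rose in WT from 23.7, 21.0 and 37.7 CPM to 91.5, 48.5 and 80.3 CPM and fell in KO from 46.9, 57.3 and 39.6 CPM to 21.4, 12.6 and 11.3 CPM (difference -3.09, adjusted p = 0.0226). Mfsd2a, a lysolipid transporter, was opposite in the same way, at a log2 fold change of 1.15 in WT and -1.36 in KO (-2.51, adjusted p = 0.0321), as was Mgll, monoacylglycerol lipase, at 0.68 and -0.42 (-1.10, adjusted p = 0.00156). Foxo3 went the other way, at -0.60 in WT and 0.65 in KO (1.25, adjusted p = 0.0185). Of the hepatocyte factors, Cebpa (-0.90, adjusted p = 0.0323), Onecut2 (-0.80, adjusted p = 0.0488) and Tbx3 (-1.79, adjusted p = 0.0226) had the lower response in KO. The sterol exporters Abcg5 and Abcg8, which fell in WT by 1.38 and 1.23 on the log2 scale, had responses of -0.27 and -0.34 in KO (differences 1.11 and 0.89, adjusted p = 0.0318 and 0.0229). In the 12 fits that each left out 1 library, the difference was lost in 8 for Cebpa (adjusted p up to 0.131), 9 for Onecut2 (0.162), 7 for Tbx3 (0.0769), 11 for Abcg5 (0.082), 6 for Abcg8 (0.0835), 5 for Foxo3 (0.0605) and 7 each for Inhbe and Mfsd2a (0.0792 and 0.0928), and in none for Mgll. The KO call of Inhbe was itself lost without KO 0 h replicate 2 (adjusted p = 0.0715), KO 1 h replicate 2 (0.0982) or KO 1 h replicate 3 (0.0887). That of Mfsd2a was lost without KO 0 h replicate 3 (0.106) or KO 1 h replicate 2 (0.119), and with only the groups compared (0.102).

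**Figure D5:**
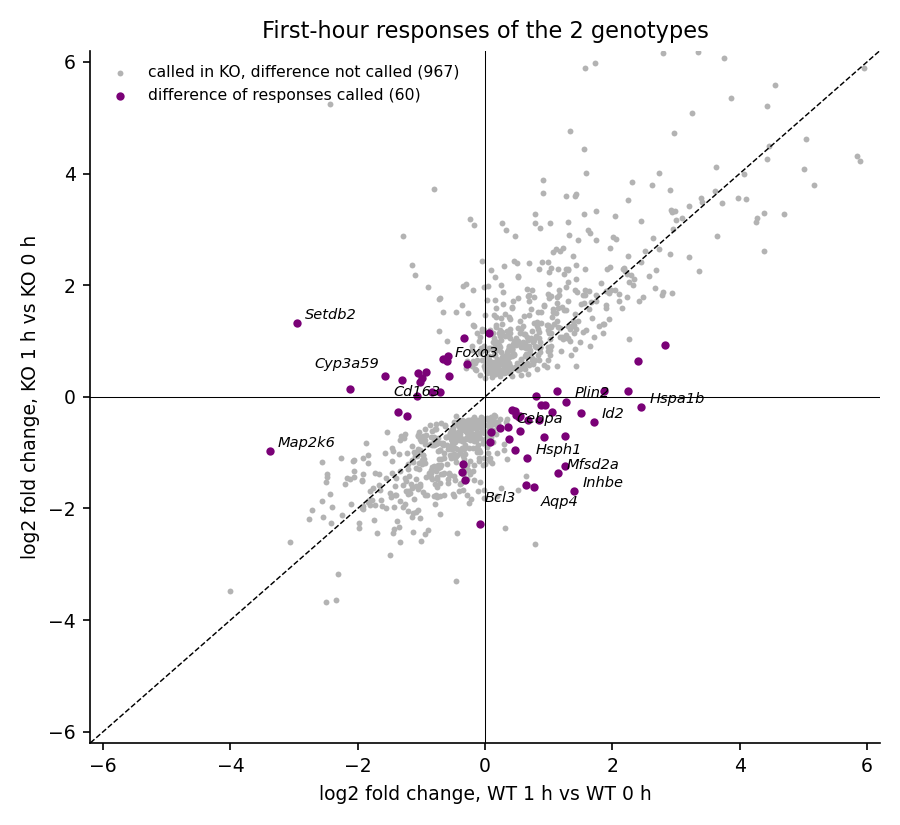
Fitted log2 fold change at 1 h in WT liver (x axis) and KO liver (y axis) for genes called in KO liver (grey, 967 drawn, 7 lie outside the axes) and for the 60 genes whose responses differed (purple). The dashed line marks equal responses; most grey points lie in the 2 quadrants where both genotypes moved the same way, and purple points with Inhbe, Aqp4 and Mfsd2a lie where the fitted change was positive in WT and negative in KO.

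At later times the KO livers were compared with the same 3 KO 0 h mice, so the values are given side by side only. Of the genes that rose at 1 h, 364 were also called higher at 3 h and 358 at 12 h, and of those that fell 310 and 327 were also called lower. None was called in the opposite direction at 3 h, and 2 and 16 were at 12 h. Of the 12203 genes not called at 1 h, 11563 were also not called at 3 h and 9104 at 12 h. Many more of these genes were thus called at 12 h than at 3 h. Atf3 had log2 fold changes of 3.56, 4.54 and 7.91 at 1, 3 and 12 h, Chka 2.52, 2.93 and 5.89, and Gdf15 3.50, 4.29 and 6.40. Jun was at 4.26, 4.45 and 5.33. Per2 stood at -1.62, -0.48 and 1.07 and Bhlhe40, a clock repressor, at -1.48, -0.72 and 1.87, both called lower at 1 h and higher at 12 h, although the 1 h call of Bhlhe40 was lost in 4 of the 6 fits without 1 KO library. Clec2d was at -2.27, -1.66 and -2.55. Foxa1 was at -0.91, -0.52 and -0.11, and its 12 h value was not called.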

How the data were processed

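Liver polyA RNA of 24 mice was measured, and 12 libraries (KO and WT, 0 and 1 h, 3 each) carry the comparisons at 1 h; KO liver at 3 and 12 h is given beside them. The authors deposited raw counts per gene from STAR on mm39, per the submitters' processing notes. STAR's version and the annotation: not given in the sources used here. There were 50657 genes and 4 lines naming no gene, which were left out, and of 3 count columns the unstranded one was used. Counts were fitted in R 4.3.3 with edgeR 4.0.16: filterByExpr on the 8 groups, TMM, robust quasi-likelihood, 1 mean per group, all 24 libraries, two-sided F-tests with Benjamini-Hochberg adjustment over 13204 genes at 0.05. DESeq2 1.42.0 was an alternative. The script was tested on simulated data.

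The members (a comparison whose libraries were taken by label), the 41 gene groups and the 14 marker lists were chosen with earlier results of these data known, and a gene group was described by its counts and median without a test. Named genes were Egfr, up to 12 largest changes and up to 10 smallest p per direction (at least 5 CPM in the higher group, groups separate, at least 50% of counts on the own strand, no predicted names), up to 4 members per list, and up to 6 differences of response per direction; Myc, Fosb, Junb, Nr4a1, Zfp36l2, Klf4, Fosl2, Klf2, Mgll, Hmgcs1, Areg, Hbegf, Tgfa, Erbb3, Bhlhe40 and other list members were added after their values were seen. Replicates are separate mice. Promoters are RefSeq entries on GRCm38.p6, another build than the counts, so the positions printed for 5 promoters are on that build and none is given for the counted genes. Alternatives were RLE or no scaling, other filters, DESeq2, only the groups compared, a replicate block, gene-strand counts, no ribosomal RNA loci, and leaving out each library.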

Additional observations from a re-analysis of the deposited data

Results flagged for a closer look

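The response at 1 h differed between KO and WT liver, by the interaction term of the edgeR fit over all tested genes, for 60 genes. The 6 largest differences in each direction that met the naming limits are given here as KO response minus WT response in log2 units, with both responses. Those with the higher response in KO liver were Setdb2 (difference 4.27; 1.32 in KO and -2.96 in WT), Map2k6 (2.41; -0.97 and -3.39), Cyp3a59 (1.94; 0.37 and -1.57), Cd163 (1.47; 0.42 and -1.05), Shroom3 (1.38; 1.05 and -0.33) and Tent5c (1.37; 0.44 and -0.92). Setdb2 stood at 6.32, 2.73 and 6.66 CPM at WT 0 h against 0.158, 0.149 and 0.621 CPM at KO 0 h, so the genotypes already differed at 0 h, and the KO call itself was absent. Cd163 is a Kupffer cell marker, and 7 of 12 such markers fell in WT liver while none was called in KO liver. The 12 markers summed to 100, 157 and 182 CPM at WT 0 h and to 69.4, 80 and 76.7 CPM at WT 1 h. At KO 0 h they summed to 103, 80.3 and 83.7 CPM, so 2 of the WT 0 h livers were above all KO 0 h livers. The difference of response was called for 1 of the 12.

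Those with the lower response in KO liver were Inhbe (-3.09; -1.68 and 1.40), Hspa1b (-2.63; -0.19 and 2.45), Mfsd2a (-2.51; -1.36 and 1.15), Aqp4 (-2.39; -1.62 and 0.77), Bcl3 (-2.23; -1.58 and 0.64) and Id2 (-2.16; -0.46 and 1.70). Aqp4, a water channel, stood at 10.1, 9.25 and 12.0 CPM at KO 0 h and 4.18, 3.24 and 2.93 CPM at KO 1 h, and at 6.83, 5.89 and 4.93 CPM and then 10.8, 6.56 and 12.9 CPM in WT. Bcl3 stood at 3.61, 3.15 and 4.13 CPM at WT 0 h and 7.37, 4.99 and 4.79 CPM at WT 1 h, against 5.70, 5.67 and 4.72 CPM at KO 0 h. For Inhbe, Aqp4, Bcl3 and Id2 the KO 0 h livers were thus above all WT 0 h livers, while for Hspa1b they overlapped. With each of the 12 libraries left out in turn, the difference passed in all 12 fits for Map2k6, Aqp4, Bcl3 and Id2. It was lost in 4 fits for Setdb2, in 7 each for Inhbe and Mfsd2a, in 8 for Cd163, in 9 each for Cyp3a59 and Shroom3, and in 10 each for Tent5c and Hspa1b.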

How the results depend on the processing

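The count of 1001 genes changed in KO liver was 781 to 1231 under the scaling, filter, tool, strand and sample alternatives except gene-strand counts, which gave 682, and ran from 567 (without KO 1 h replicate 2) to 1205 (without the library labelled KO 1 h replicate 1) when 1 library was left out. The 60 differences of response became 217 without the low-count filter and 115 with DESeq2, and 15 to 83 with 1 library left out. The WT count of 1068 was 684 to 800 with 1 WT library left out. Same-numbered KO libraries at 0 and 1 h deviated together with correlations of 0.102, 0.0154 and 0.152, and differently numbered ones with -0.122 to 0.0219. In WT liver the same-numbered values were 0.0949, 0.126 and -0.0652, and the differently numbered ones ran from -0.208 to 0.169. The labels do not say that a replicate number marks a shared litter or day, so the numbers were not taken as pairs. With the replicate number as a block, 1069 genes changed in KO liver, 76 differed in response and 1064 changed in WT liver. The Egfr change was 0.833 to 1.61 with 1 library left out, and DESeq2 called it (1.345, adjusted p = 0.0323). The fat oxidation group had 8 called members with DESeq2 (2 higher, 6 lower) and 7 with the block (1 higher, 6 lower). Wars1, called higher in the unstranded counts, reversed to -0.11 with gene-strand counts (adjusted p = 0.868). The cause was not tested. With 3 mice per group and at most 4.37 M counts outside mitochondrial ribosomal RNA, small changes of low genes were not detectable.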
